A study of Mus musculus with 6 samples.

Results

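The 30 genes described here make cholesterol and fatty acids or control their making. They were chosen by name, as the rows of the per-library tables whose gene symbol is on a list of 30, and all 30 were found among the 55298 genes in the files. RNA-seq was done on cancer-associated fibroblasts (CAFs) sorted from orthotopic lung tumours of wild-type (wt) C57BL/6 mice aged over 8 weeks. The apCAFs (libraries 1, 2 and 3) carried MHC class II on their surface and the nonapCAFs (libraries 4, 5 and 6) did not. Both were sorted as FSC-A high cells negative for CD45, CD31, EPCAM and mCherry and positive for PDPL, as the labels spell it, and PDGFRa. Tumours were pooled and both populations were isolated side by side in 3 experiments, so a library does not stand for 1 animal. The labels give neither the tumour cell line nor which libraries share an experiment, and the spread between libraries may be partly technical. The question for these genes was whether fibroblasts with and without class II differ in their lipid synthesis programme.

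Cells build sterols from acetyl-CoA through mevalonate to farnesyl diphosphate, then through squalene and lanosterol to cholesterol. The same acetyl-CoA, released from citrate, is elongated to fatty acids, which are then desaturated and activated. Transcription of both routes is driven by the SREBP factors: SCAP escorts them from the endoplasmic reticulum to the Golgi for cleavage when sterols are scarce, and INSIG proteins hold the complex back when sterols are plentiful.

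Values are the authors' normalized counts, and the sequencing depth is unknown. The test was limma on log2(value + 1) over all 36443 genes above 0 in at least 1 library, with p-values adjusted over all of them and called at 0.05. Differences are apCAFs minus nonapCAFs. The libraries followed their labels: the class II invariant chain gene Cd74 ranged from 57814 to 102314 in apCAFs and from 604 to 1108 in nonapCAFs. All 8 fibroblast markers were detected in each library, with Col3a1 from 635483 to 1773235. Markers of other cell types were also detected, and which cells their RNA came from was not tested. The summed value of 12 alveolar type II (AT2) cell markers was 111276, 92298 and 12695 in apCAFs 1, 2 and 3 and between 13856 and 15514 in nonapCAFs. Outside apCAFs 1 and 2 most of this sum came from Lpcat1, Abca3, Etv5 and Lamp3, which were at 800 or more in each library. Sftpa1, by contrast, had 9646, 8755 and 35 in apCAFs and 32, 53 and 19 in nonapCAFs. That of 8 mesothelial markers was 40228 to 51533 in apCAFs and 5276 to 5987 in nonapCAFs. In sorted bulk RNA, fewer cells of a type and less RNA per cell cannot be told apart.

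Many sterol genes are read from promoters that hold a sterol regulatory element next to CCAAT boxes, which the factor NF-Y binds. RefSeq promoters (GRCm38.p6, 250 bases before to 50 after the start site) were found for 24 of the 30 genes. The motif CCAAT, searched on both strands with any overlap allowed, was in the promoters of 21 of these 24 genes (87.5%), against 41.1% of 27025 genes with a promoter. Among 10663 genes with a promoter that averaged at least 100, the share was 43.0%. These shares count a match in any promoter of a gene. Counted by promoter, CCAAT was in 22 of the 33 promoters of the 24 genes, against 37.4% of all 32851. Acaca, Elovl6 and Scap held none. The Sp1 motif GGGCGG was in 20 of 24 (83.3%), against 38.2% of all and 67.5% of the abundant genes. The E-box CACGTG was in 5 of 24 (20.8%), against 8.09% and 11.5%. A sterol regulatory element core, TCACNCCAC, was in 2 of 24 (Hmgcs1 and Acsl1), against 1.44% of all genes. A match is a description of these letters and not a site shown to be used. The 200 bases before the start site are printed, 5′ to 3′ along the gene, for Hmgcs1, Mvd, Fasn and Ebp. Hmgcs1 ranked highest of the synthesis genes by the library shifts described below. Mvd acts later in the same route, and Fasn is the central fatty acid enzyme. Ebp is the gene whose groups stood farthest apart relative to their spread. Capitals mark CCAAT or its reverse complement ATTGG and, in Hmgcs1, the sterol element core.
Hmgcs1, chr13:119690151-119690350 (+ strand): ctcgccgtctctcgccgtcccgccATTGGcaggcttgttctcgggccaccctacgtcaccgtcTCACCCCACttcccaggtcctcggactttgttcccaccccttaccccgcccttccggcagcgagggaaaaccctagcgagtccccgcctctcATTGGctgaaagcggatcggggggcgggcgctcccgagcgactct
Mvd, chr8:122443423-122443622 (- strand): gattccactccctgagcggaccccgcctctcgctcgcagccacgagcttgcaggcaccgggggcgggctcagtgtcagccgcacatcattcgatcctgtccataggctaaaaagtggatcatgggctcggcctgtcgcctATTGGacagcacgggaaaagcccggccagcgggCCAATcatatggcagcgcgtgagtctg
Fasn, chr11:120824548-120824747 (- strand): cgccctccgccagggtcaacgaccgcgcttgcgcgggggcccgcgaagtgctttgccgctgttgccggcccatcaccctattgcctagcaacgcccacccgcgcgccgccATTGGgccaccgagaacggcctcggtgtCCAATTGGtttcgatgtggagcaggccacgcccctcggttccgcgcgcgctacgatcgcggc
Ebp, chrX:8193513-8193712 (- strand): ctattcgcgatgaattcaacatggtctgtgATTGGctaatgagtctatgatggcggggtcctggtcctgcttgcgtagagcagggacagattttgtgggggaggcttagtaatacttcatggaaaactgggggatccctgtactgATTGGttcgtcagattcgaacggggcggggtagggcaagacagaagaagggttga

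The core of Hmgcs1 begins 137 bases before its start site, between CCAAT boxes that begin 176 and 45 bases before it. Mvd has CCAAT on both strands, 60 and 27 bases before its start. Fasn has 3 matches, 2 of which overlap on opposite strands. Ebp has 2, and none of the 4 printed windows overlaps an annotated exon. Ebp thus shares the CCAAT boxes of the set, while its values, given below, lay in the opposite direction to those of most of the set.

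Of the 30 genes, limma called 0 in either direction. Of all tested genes, 1602 were called (4.4%), 1425 of them higher in apCAFs (3.91%) and 177 lower (0.486%). Those shares include many faint genes. With genes averaging under 10 left out, limma called 2465 of 24071 genes and 1 of the 30 (Ebp). Without adjustment, 1 of the 30 (Ebp) had p under 0.05 and was higher and 0 were lower, against 4764 and 2257 of all genes. In the authors' deposited table, 1 of the 30 (Ebp) had an adjusted p under 0.05, as did 30.3% of the 19255 genes with one. The difference lay below 0 for 24 genes and above 0 for 6 (Ebp, Scd1, Insig1, Acsl1, Cyp51 and Mvk). Its median over the 30 genes was -0.22 (log2), against -0.04 over all tested genes. Without apCAFs 3 that median was 0.03, with 12 genes below 0. Without both apCAFs 3 and nonapCAFs 6, a choice added after the data were seen, it was -0.13, with 24 genes below 0. Groups did not overlap for 1 gene that was higher in apCAFs (Ebp), where 17.1% of all tested genes had that order, and for 3 that were lower (Tm7sf2, Scap and Insig2), against 15.4%.

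The test leaves room for moderate differences. The 95% limma interval of 12 genes lay within a 2-fold change either way, and that of 18 reached beyond it. The narrowest were those of regulators: the Scap interval ran from -0.56 to 0.10 and the Insig2 interval from -0.51 to 0.19 (log2). The widest was that of Hmgcs1, from -1.71 to 1.55.

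**Figure D1:**
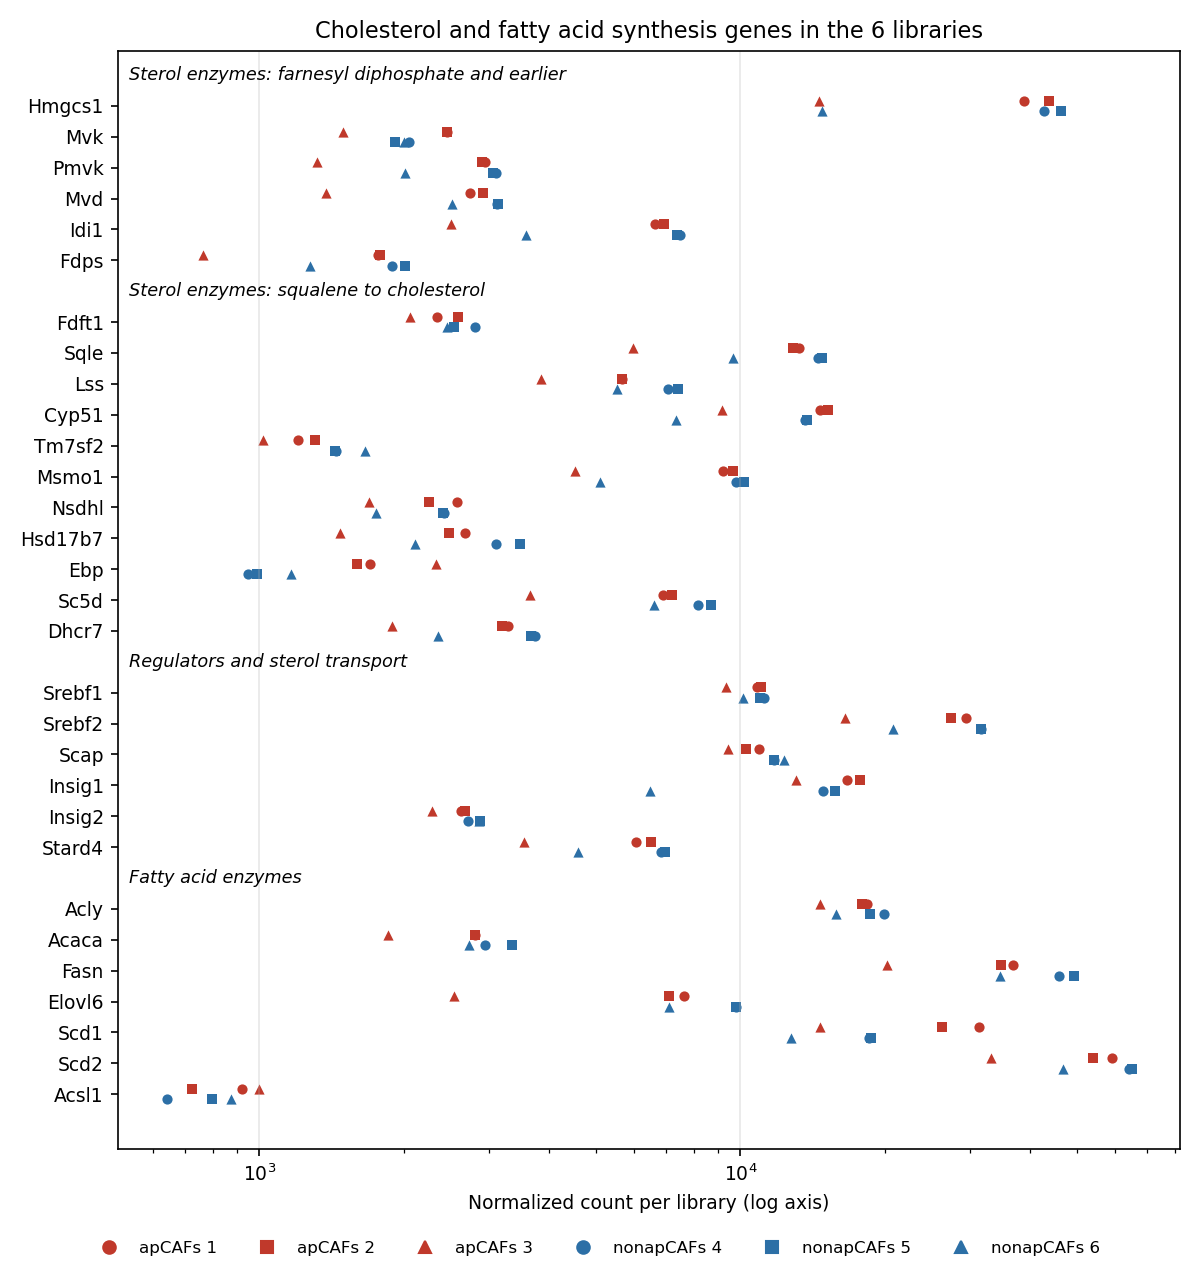
Normalized count of each of the 30 genes (log axis) in each library, by arm of the pathway; red, apCAFs; blue, nonapCAFs; triangles, libraries 3 and 6. For Hmgcs1 both triangles lie at 14552 and 14763, left of the other 4 libraries at 38760 to 46472, whereas for Ebp the red points all lie right of the blue ones.

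Per kb of annotated exon, which allows levels of different genes to be compared, the desaturase gene Scd2 had the highest level: 8929.8 ± 2517 (SD, n = 3) in apCAFs and 10735 ± 1887 in nonapCAFs. Hmgcs1 followed at 7040.5 ± 3397 and 7548 ± 3775. The gap between Hmgcs1 and Scd2 was smaller than the SD of Hmgcs1 in each group, but in nonapCAFs larger than the SD of Scd2. Next by the mean of all libraries came Insig1 (4555), Scd1 (4159), Srebf2 (3649), Fasn (3375) and Acly (3321). The lowest levels per kb were those of Acsl1 (78.8) and Acaca (161.0). Exon length here is the union over all annotated transcripts, which lowers the level of genes with long minor isoforms.

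The first arm, 6 genes from acetoacetyl-CoA to farnesyl diphosphate, had a median log2 difference of -0.26 and none of its genes was called. Hmgcs1 (ENSMUSG00000093930, chromosome 13, 119690379 to 119708260), the cytosolic HMG-CoA synthase that feeds mevalonate synthesis, had 38760, 43720 and 14552 normalized counts in apCAFs 1, 2 and 3. In nonapCAFs 4, 5 and 6 it had 42788, 46472 and 14763. The groups overlapped almost fully, and within each group the library numbered 3 or 6 was the low one. The difference was -0.08 (log2, SE 0.65, limma adjusted p = 0.948). The antisense gene Gm48342 shares 12.1% of the exonic length of Hmgcs1, and the strand setting of the counts is not given.

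Idi1, the isomerase that makes dimethylallyl diphosphate, had 6659, 6943 and 2508 in apCAFs against 7496, 7397 and 3588 in nonapCAFs (log2 -0.26, SE 0.53). As for Hmgcs1, libraries 3 and 6 were the lowest of their groups. Idi1 shares 9.22% of its exonic length with the antisense gene Gm48574. Fdps, which joins the isoprene units to farnesyl diphosphate, had 1766, 1785 and 762 against 1888, 2008 and 1273 (log2 -0.34, SE 0.41); it shares 26.7% of its exonic length with Gm43738 on the same strand. The kinase gene Pmvk had 2943, 2907 and 1317 against 3101, 3053 and 2010 (log2 -0.25, SE 0.40). In both genes apCAFs 3 was the lowest of the 6 libraries. Mvd, the decarboxylase whose promoter is printed above, had 2736, 2911 and 1374 against 3115, 3135 and 2513 (log2 -0.39, SE 0.34). Mvk, mevalonate kinase, had 2456, 2456 and 1496 against 2050, 1917 and 1996 (log2 0.07, SE 0.24): apCAFs 1 and 2 lay above and apCAFs 3 below every nonapCAFs library.

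The second arm, 11 genes from squalene synthase to cholesterol, had a median of -0.23, with 9 genes below 0, 2 above and 0 called. Ebp (ENSMUSG00000031168, chromosome X, 8185329 to 8193512), the sterol isomerase that shifts a double bond of the sterol ring, stood apart in it. It had 1698, 1593 and 2328 in apCAFs and 946, 989 and 1165 in nonapCAFs. Every apCAFs library was above every nonapCAFs library, and libraries 3 and 6 were the highest of their groups. The difference was 1.79-fold (log2 0.84, SE 0.20, 95% interval 0.33 to 1.36). It did not pass (limma adjusted p = 0.0987). The authors' deposited table gives Ebp a log2 fold change of 0.86 and an adjusted p of 0.000187. Its limma adjusted p was 0.0489 when genes averaging under 10 were left out, 0.0183 with a variance trend, 0.0321 with a term for libraries 3 and 6 (added after the data were seen) and 0.397 with the close libraries of each group averaged. With an experiment term it was 0.111 to 0.297 over the 6 pairings. No other annotated gene shares exonic sequence with Ebp.

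Tm7sf2, a sterol C14 reductase gene, had 1205, 1308 and 1017 in apCAFs against 1446, 1439 and 1655 in nonapCAFs. All apCAFs libraries were lower than all nonapCAFs libraries (log2 -0.37, SE 0.16, limma adjusted p = 0.296). Its adjusted p was 0.0570 in the authors' deposited table. Tm7sf2 shares 12.1% of its exonic length with Vps51 on the same strand, so its count is uncertain.

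Sqle, the squalene epoxidase and a rate-limiting step, had 13243, 12877 and 5975 against 14519, 14760 and 9665 (log2 -0.34, SE 0.39). Lss, which closes squalene epoxide to lanosterol, had 5673, 5667 and 3850 against 7083, 7410 and 5535 (log2 -0.41, SE 0.23), with only nonapCAFs 6 inside the apCAFs range. Cyp51, the lanosterol demethylase, had 14667, 15203 and 9135 against 13607, 13736 and 7339 (log2 0.19, SE 0.35). These 3 enzymes act one after another, and their differences did not share a sign. Msmo1, the C4 methyl oxidase, had 9184, 9649 and 4539 against 9800, 10160 and 5115 (log2 -0.11, SE 0.43). Nsdhl, which acts with it in removing the C4 methyl groups, had 2575, 2250 and 1687 against 2415, 2407 and 1745 (log2 -0.02, SE 0.24). The group means of Msmo1 and of Nsdhl differed by less than the spread between libraries.

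Hsd17b7, the ketosteroid reductase of that C4 step, had 2678, 2474 and 1470 against 3106, 3479 and 2103 (log2 -0.41, SE 0.33). Sc5d, the sterol desaturase after Ebp, had 6899, 7212 and 3652 against 8151, 8704 and 6602 (log2 -0.46, SE 0.32). Dhcr7, which makes cholesterol from 7-dehydrocholesterol, had 3291, 3190 and 1889 against 3741, 3665 and 2356 (log2 -0.23, SE 0.32). So Ebp differed in sign from the enzyme that follows it in the pathway. Fdft1, squalene synthase, had 2336, 2593 and 2054 against 2807, 2543 and 2455 (log2 -0.16, SE 0.15), and shares 18.3% of its exonic length with the antisense gene Ctsb.

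**Figure D2:**
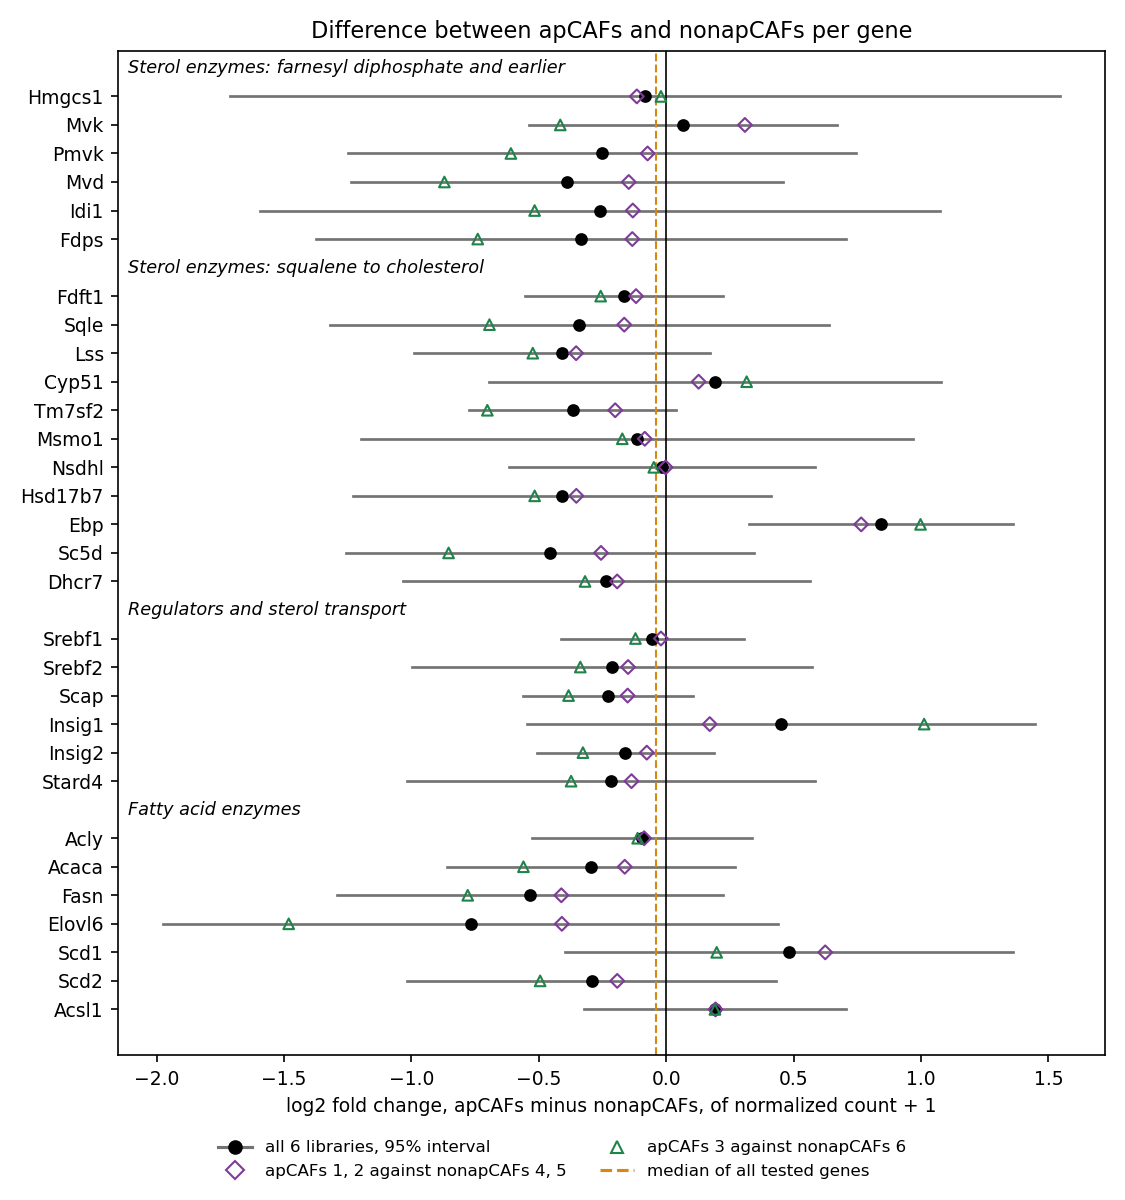
log2 difference of each gene, apCAFs minus nonapCAFs, with its 95% limma interval (black point and bar), and the same difference in libraries 1 and 2 against 4 and 5 (diamonds) and in 3 against 6 (triangles). The Ebp interval, 0.33 to 1.36, is the only one that does not cross 0, and the triangle of Elovl6 lies at -1.48.

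The 6 regulators and transport genes had a median of -0.19 and 0 were called. Srebf1, which encodes the SREBP-1 factors that favour fatty acid genes, had 10844, 11021 and 9319 in apCAFs and 11196, 10985 and 10132 in nonapCAFs (log2 -0.05, SE 0.14, limma adjusted p = 0.838). Srebf2, which encodes the factor for sterol genes, had 29471, 27450 and 16460 against 31555, 31547 and 20794 (log2 -0.21, SE 0.31, limma adjusted p = 0.692). Srebf1 thus varied little between libraries, while Srebf2 was low in libraries 3 and 6, as were most of the sterol enzymes.

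Scap, the escort protein, had 10911, 10274 and 9443 against 11765, 11752 and 12316 (log2 -0.23, SE 0.13, limma adjusted p = 0.384). The groups did not overlap, and Scap had an adjusted p of 0.0573 in the authors' deposited table. Scap shares 13.2% of its exonic length with the antisense gene 5830462I19Rik. Insig2, one of the retention proteins, had 2625, 2682 and 2280 against 2717, 2880 and 2860 (log2 -0.16, SE 0.14, limma adjusted p = 0.518), also without overlap.

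Insig1, the other retention protein and itself an SREBP target, had 16674, 17736 and 13072 against 14859, 15704 and 6480. Its difference of 0.45 (SE 0.39, limma adjusted p = 0.518) was set mainly by nonapCAFs 6: without that library it was 0.04. Stard4, a carrier of sterol between membranes, had 6058, 6502 and 3541 against 6839, 6957 and 4587 (log2 -0.22, SE 0.32).

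The fatty acid arm had a median of -0.29 and 0 of 7 called. Acly, which releases acetyl-CoA from citrate, had 18330, 17888 and 14649 against 19851, 18626 and 15833 (log2 -0.10, SE 0.17). Acaca, the carboxylase that commits it to fatty acids, had 2806, 2812 and 1847 against 2948, 3354 and 2724 (log2 -0.30, SE 0.22). Fasn, the synthase (chromosome 11, 120805846 to 120824547), had 36798, 34839 and 20160 in apCAFs and 46014, 49298 and 34593 in nonapCAFs. Only nonapCAFs 6 lay inside the apCAFs range of Fasn. The difference was -0.53 (SE 0.30, limma adjusted p = 0.374).

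Elovl6, which lengthens palmitate, had 7633, 7109 and 2544 in apCAFs and 9802, 9768 and 7106 in nonapCAFs. It had the largest difference below 0 of the 30 genes, -0.77 (SE 0.48, 95% interval -1.97 to 0.44, limma adjusted p = 0.422), and apCAFs 3 carried much of it: without that library the difference was -0.26. Scd2 had 59106, 54091 and 33181 against 64236, 64971 and 46756 (log2 -0.29, SE 0.29).

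Scd1, the other delta-9 desaturase, had 31331, 26189 and 14628 against 18460, 18710 and 12751 (log2 0.48, SE 0.35, limma adjusted p = 0.494). Scd1 was high in apCAFs 1 and 2, the libraries that held the high AT2 marker sums, and the part of AT2 cell RNA in its value was not tested. The 2 desaturases are close paralogs, so reads may have been split between them. Acsl1, which activates fatty acids with CoA, had 922, 725 and 998 against 642, 796 and 874 (log2 0.19, SE 0.20). It shares 9.91% of its exonic length with the antisense gene Gm45244.

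The plainest pattern was between libraries and not between groups. Compared with the mean log2 value of the other pair in its group, apCAFs 3 was lower for 28 of the 30 genes and nonapCAFs 6 for 24. Both were lower for 24 of 30, against 33.6% of the 17829 genes that averaged at least 100. The median shift of the 30 genes was -0.77 in apCAFs 3 and -0.46 in nonapCAFs 6, that is 0.585 and 0.725 times the level of the other pair. The median of all 17829 genes was -0.01 in each. The libraries were picked out because they stand apart from the others of their group, so this is a description.

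By arm, the shifts were -1.18 in apCAFs 3 and -0.61 in nonapCAFs 6 for the early sterol enzymes, -0.71 and -0.47 for the late ones, -0.31 and -0.36 for the regulators, and -0.77 and -0.46 for the fatty acid enzymes. Hmgcs1 had the shifts -1.50 and -1.59. Ranked by the smaller of both falls, Hmgcs1 was 9th, Idi1 was 25th and Msmo1 was 31st of 11308 genes averaging at least 1000, and 16 of the 29 synthesis genes above that level were in the first 200. Elovl6 was far lower in apCAFs 3 (-1.53) than in nonapCAFs 6 (-0.46), and Insig1 the other way (-0.40 and -1.24). Ebp (0.50 and 0.27) and Acsl1 (0.29 and 0.29) were higher in both.

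Across the 30 genes the shifts in the 2 libraries had a Pearson r of 0.71 and a Spearman rho of 0.68, against 0.47 and 0.41 across the 17829 genes. All genes share the same 6 libraries, so these are descriptions and genes are not replicates. For 26 of 30 genes the mean size of the shifts of libraries 3 and 6 exceeded that of the difference between apCAFs and nonapCAFs. The share over all genes was not computed. A shift sets a single library against a pair, whereas the group difference uses all 6, so this count does not single out these genes.

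**Figure D3:**
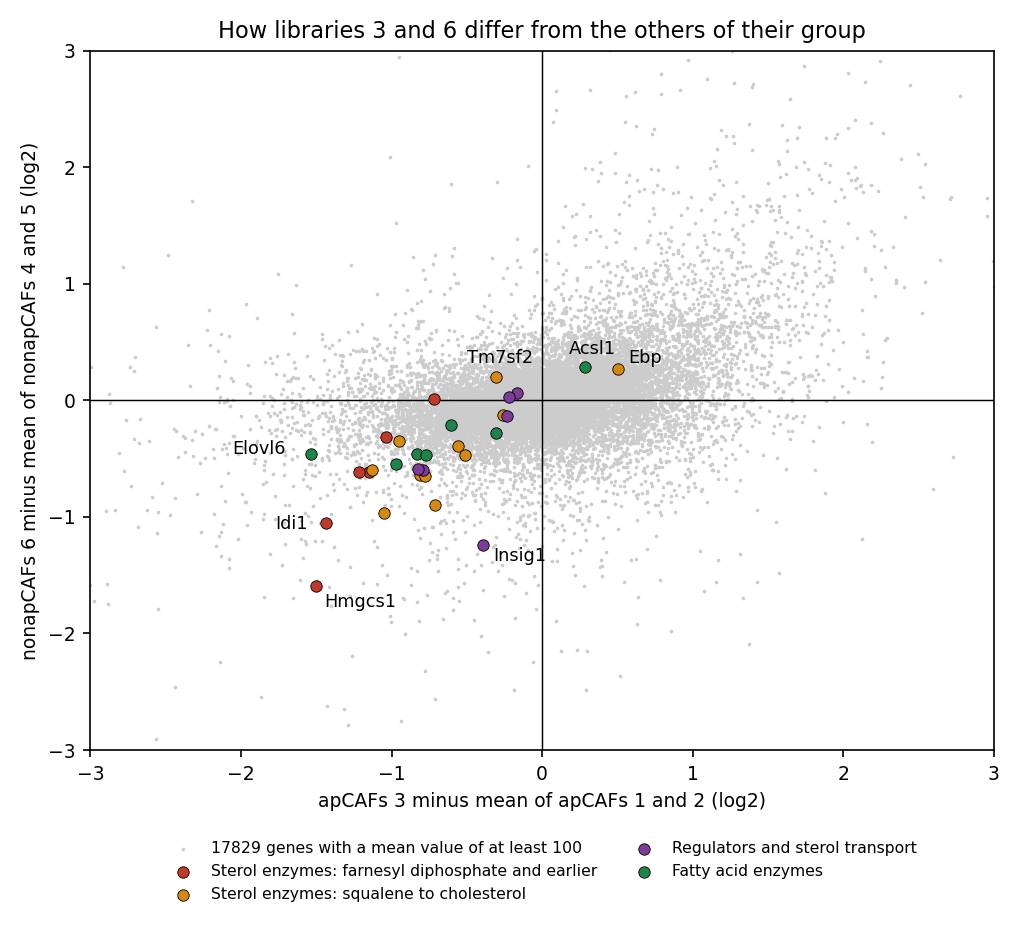
Each point is a gene: x, log2 value in apCAFs 3 minus the mean of apCAFs 1 and 2; y, the same for nonapCAFs 6 against 4 and 5; grey, 17829 genes, of which 90 lie outside the axes; colours, the 4 arms. Of the 30 genes 24 lie in the lower left, with Hmgcs1 at -1.50 and -1.59, and Ebp lies in the upper right.

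Other markers moved between the same libraries. The summed value of 12 cell cycle genes was 106537, 107051 and 53284 in apCAFs 1, 2 and 3 and 125184, 127407 and 105985 in nonapCAFs 4, 5 and 6, with 12 of 12 lower in apCAFs 3 and 11 of 12 in nonapCAFs 6. Mki67, the proliferation marker, had 18889, 18380 and 9875, then 22647, 26444 and 20273. Of the 12 AT2 markers, 12 were lower in apCAFs 3 and 9 in nonapCAFs 6. Several of them were faint in all nonapCAFs libraries, such as Slc34a2 (19, 19 and 7) and Hc (22, 46 and 19), so the count of 9 says little. Sftpc, the surfactant gene that defines AT2 cells, had 48853, 40491 and 226 in apCAFs and 185, 185 and 124 in nonapCAFs. The AT2 marker sums in nonapCAFs were 15286, 15514 and 13856. The part of proliferation and AT2 cell RNA in the synthesis genes' values was not tested. Of the adipocyte markers, Lep was at 0 in all 6 libraries, Adipoq at 0 to 24, and the sum over 6 markers was 139 to 210 in apCAFs and 42 to 341 in nonapCAFs.

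With the libraries split by this pattern, 24 genes had a difference below 0 both in libraries 1 and 2 against 4 and 5 and in library 3 against 6, 5 lay above 0 in both, and Mvk changed sign (0.31 and -0.42). The median was -0.13 in the first split and -0.38 in the second. Ebp was 0.77 and 0.998, Scd1 0.62 and 0.20, Insig1 0.17 and 1.01, Fasn -0.41 and -0.78, and Elovl6 -0.41 and -1.48. The second split has 1 library in each group and no replicate check.

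Genes that handle the products of these pathways were looked at in 7 lists with 112 genes, chosen with earlier results of these data known. limma called 9 of them higher in apCAFs and 0 lower, where 3.91% and 0.486% of all tested genes were called. Those shares include many faint genes. With genes averaging under 10 left out, 2465 of 24071 genes were called, and the count of the 112 in that setting is given below. Without adjustment, 39 and 5 had p under 0.05, against 4764 and 2257 of all 36443 genes. Of the 112, 50 had an adjusted p under 0.05 in the authors' deposited table, against 30.3% of all its genes. The median difference was 0.22 over the 112 genes. The limma count was 8 without apCAFs 3, 1 without apCAFs 1, 3 without nonapCAFs 6 and 0 without apCAFs 2, nonapCAFs 4 or nonapCAFs 5. It was also 0 of the 112, and 0 of all genes, with a term for the experiment under each of the 6 possible pairings of libraries, and with the close libraries of each group averaged. So the rises named below hold for the fit without such a term. The mesothelial marker sums were also higher in every apCAFs library than in any nonapCAFs library. Their part in the 9 calls was not tested.

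The machinery that senses sterol and processes SREBP had 0 of 12 called and a median of -0.04. Without adjustment, 2 of the 12 had p under 0.05 above 0 and 1 below. The site-1 protease gene Mbtps1 had 19669, 19398 and 14867 against 22410, 21805 and 19375. The branch from farnesyl diphosphate to dolichol, ubiquinone and prenylated proteins had 0 of 12 called and a median of -0.15, with 0 above and 2 below 0 at an unadjusted p under 0.05. Its most abundant gene, Nus1, ranged from 8855 to 10170 in apCAFs and from 9375 to 10041 in nonapCAFs.

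Among 15 genes of cholesterol uptake and transport, 2 were called higher in apCAFs. Without adjustment, 6 of the 15 had p under 0.05 above 0 and 1 below. Stard5, a sterol carrier of the Stard4 family, had 1525, 1632 and 3058 in apCAFs and 331, 370 and 529 in nonapCAFs (log2 2.29, SE 0.35, limma adjusted p = 0.0331). It shares 22.01% of its exonic length with the antisense gene Il16. Gramd1c, a protein of sterol transfer at membrane contacts, had 145, 190 and 268 against 44, 33 and 61 (log2 2.10, SE 0.33, limma adjusted p = 0.0357). Stard4, by contrast, lay at -0.22; the difference between the 2 carriers was not tested.

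Among 12 genes of cholesterol efflux, esterification and oxysterols, all lay above 0 (median 0.73), 7 of them at an unadjusted p under 0.05. Those called were 2 hydroxylases. Ch25h, which makes 25-hydroxycholesterol, had 3363, 3877 and 6480 against 962, 1248 and 674 (log2 2.23, SE 0.35, limma adjusted p = 0.0362). Cyp7b1, which hydroxylates that oxysterol further, had 1799, 1942 and 3127 against 385, 350 and 484 (log2 2.46, SE 0.27, limma adjusted p = 0.0181). For both genes every apCAFs library was above every nonapCAFs library, and apCAFs 3 was the highest. Most sterol enzymes were low both in apCAFs 3 and in nonapCAFs 6. In nonapCAFs 6, Ch25h was the lowest of its group (674) and Cyp7b1 the highest of its group (484). A link between these hydroxylases and the sterol enzymes was not tested.

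On the fatty acid side, 2 of 26 other synthesis and elongation genes were called higher in apCAFs. Without adjustment, 12 of the 26 had p under 0.05 above 0 and 0 below. Acsl4, an acyl-CoA synthetase that prefers arachidonate, had 18771, 19181 and 27040 against 8892, 9573 and 7129 (log2 1.33, SE 0.22, limma adjusted p = 0.0389), where Acsl1 differed by 0.19. Mid1ip1, which activates acetyl-CoA carboxylase, had 4232, 4275 and 4577 against 2439, 2273 and 2381 (log2 0.88, SE 0.13, limma adjusted p = 0.0282), and shares 25.5% of its exonic length with the antisense gene Gm14493. Of 15 oxidation genes, 5 had an unadjusted p under 0.05 above 0 and 0 below, and 1 was called. That was the faint Ppara, a lipid-sensing receptor, with 40, 51 and 65 against 12, 10 and 10 (log2 2.16, SE 0.22, limma adjusted p = 0.0159).

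Of 20 genes of fatty acid uptake and storage, 7 had an unadjusted p under 0.05 above 0 and 1 below. Those called were 2 lipases. Mgll, the monoacylglycerol lipase, had 2112, 1861 and 2751 against 517, 496 and 291 (log2 2.39, SE 0.30, limma adjusted p = 0.0215). Lipe, the hormone-sensitive lipase, had 1127, 1033 and 1283 against 596, 578 and 585 (log2 0.96, SE 0.14, limma adjusted p = 0.0310). Lipe shares 15.6% of its exonic length with the antisense gene 4732471J01Rik. The 3 fatty acid lists had medians of 0.31, 0.36 and 0.71, against -0.29 for the fatty acid enzymes among the 30.

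**Figure D4:**
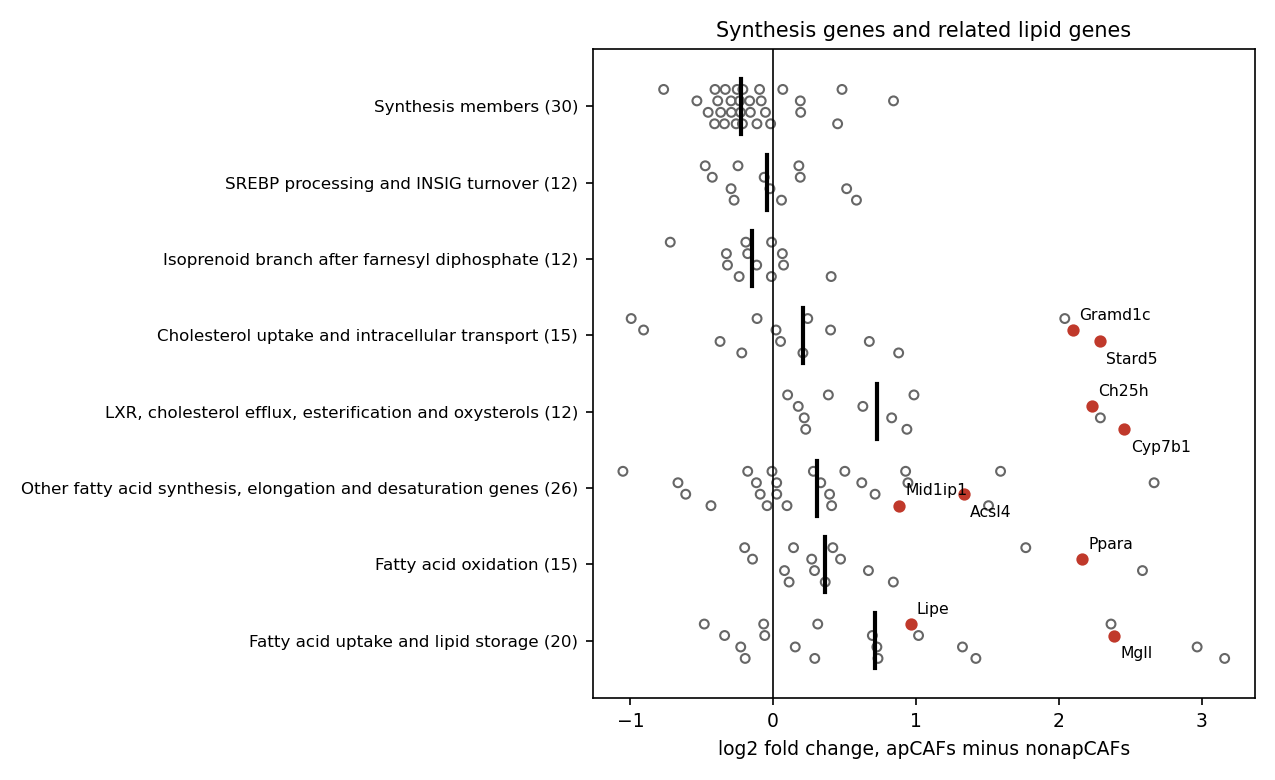
log2 difference, apCAFs minus nonapCAFs, of each of the 30 synthesis genes (top row) and of the genes in 7 related lists; filled red, called by limma; bars, medians. No filled point is in the top row, whose median is -0.22, and the 9 filled points lie between 0.88 and 2.46.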

How the data were processed

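RNA-seq of 3 apCAFs and 3 nonapCAFs libraries was analysed. Tools named in the submitters' processing notes are Trim Galore, Bowtie2 and DESeq2, with the build mm10. Which counter, annotation and strand option were used is not given in the sources used here. Per the file headers, the deposited values are counts the authors normalized between libraries, rounded to whole numbers and treated here as a score. Totals, 77960347 to 93330791, are not depths, so no counting interval is given. Per the file headers, the authors' deposited table also holds a fold change as a ratio, its log2, p-values and a GC percent, which was not used.

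The planned test for raw counts was replaced by its fallback for normalized values. limma 3.58.1 (R 4.3.3) was run on log2(value + 1), with no term but group and no variance trend, two-sided, with Benjamini-Hochberg adjustment. The other 18855 of 55298 genes, at 0 in all libraries, were left out. This scale understates changes of low genes. SD is over 3 libraries and SE is limma's. Exon lengths and overlaps are from GENCODE M21, and coordinates are those of the files. The fit was tested on simulated data. A planned comparison of protein sequences was not made.

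The members and lists were chosen with earlier results of these data known. Genes named are all members, called genes of each related list (at most 4) or its 2 most abundant, and abundant or absent markers. The values of 1 gene under this rule are not reported here. Adipoq and the printed promoters were chosen after values were seen. Alternatives tried were the pseudocount, filters, scalings, a variance trend, leaving out each library, averaging close pairs, and the 6 pairings of libraries. A term for libraries 3 and 6, and leaving both out, were added after seeing the data.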

Additional observations from a re-analysis of the deposited data

How the results depend on the processing

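In 22 alternatives the count of called synthesis genes, 0, became 1 (Ebp) when genes with a mean value under 10 were left out, with a variance trend, and with a term for libraries 3 and 6. It was 0 in the others, leaving out each library (0 to 0) included. The 9 called related genes became 14 with a pseudocount of 8, 15 with a mean of at least 10, 3 with no filter, 5 with median-centred values, 28 with a variance trend, 0 to 8 leaving out each library, 0 with close pairs averaged, 0 in each of the 6 pairings (where limma called 0 of all genes), 17 with the added term and 17 without libraries 3 and 6. With close pairs averaged limma also called 0 of all genes, with 17 related genes higher at an unadjusted p under 0.05.

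The sign of the difference changed in some alternative for 15 of the 30 genes. Mvk was -0.085 by library totals, -0.019 quantile-normalized, -0.15 median-centred and -0.054 with close pairs averaged. Median-centred values gave -0.030 for Cyp51 and -0.027 for Acsl1. Leaving out 1 library at a time gave ranges of -0.62 to 0.42 for Hmgcs1, -0.052 to 0.31 for Mvk, -0.46 to 0.13 for Pmvk, -0.61 to 0.22 for Idi1, -0.54 to 0.071 for Fdps, -0.54 to 0.035 for Sqle, -0.11 to 0.43 for Cyp51, -0.43 to 0.24 for Msmo1, -0.17 to 0.15 for Nsdhl, -0.45 to 0.025 for Dhcr7, -0.10 to 0.023 for Srebf1, -0.41 to 0.051 for Srebf2, -0.41 to 0.060 for Stard4 and -0.19 to 0.0068 for Acly. Without apCAFs 3, 12 of these 14 turned above 0. The cause was not tested. Ebp stayed between 0.62 and 0.95.

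The median over all tested genes moved from -0.04 to -0.18 (library totals), -0.19 (quantile) and -0.26 (median-centred), and the 30 genes' median lay 0.18 below it in the main fit, 0.19 by totals, 0.09 by quantile and 0.18 median-centred. The labels do not say which libraries share an experiment, so which of the 6 pairings is the true one is unknown. Depth is unknown, and 3 libraries a group from pooled tumours limit the precision.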

Other observations

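Genes outside the lipid lists were also low in libraries 3 and 6, some of them by more than Hmgcs1. Ranked among 11308 genes averaging at least 1000, those ahead of it included Mmp9, a gelatinase of matrix remodelling, with 5828, 5782 and 1072 in apCAFs 1, 2 and 3 and 7663, 7725 and 1395 in nonapCAFs 4, 5 and 6. Sele, an adhesion receptor of activated endothelium, had 5611, 5975 and 1311, then 10999, 12091 and 2437. Lrrc15, known as a marker of myofibroblast-like CAFs, had 5843, 5175 and 746, then 8260, 8461 and 2496. The phosphatase gene Dusp2 had 5913, 5819 and 743, then 7765, 7713 and 2348. The cytokine gene Il11, a few places after Hmgcs1, had 3236, 3326 and 1232, then 3445, 3442 and 1134. These genes were chosen after their values were seen, and the difference between libraries was not tested.

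Gm48342, the gene antisense to Hmgcs1, had 6947, 6895 and 2198, then 7827, 8387 and 2507. As for Hmgcs1, libraries 3 and 6 were the lowest. The strand setting of the counts is not given.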
